A study of Mus musculus with 10 samples.

Results

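Potassium channel subunit genes were taken as a group from left ventricular RNA-seq of mice. They were chosen by name, as gene symbols that start with Kcn and a further letter, and by a TPM (a level corrected for transcript length and scaled to a common total in each mouse) above 0 in at least 9 of 10 mice. Of 29564 genes in the deposited tables, 94 had such a symbol and 49 of these met the TPM condition. The antisense RNA Kcnq1ot1 and symbols of pseudogenes and opposite-strand transcripts were to be left out, but none of the 94 was one. All 10 mice were wild-type (WT) males labelled C57BL6 (C57BL/6J in the methods), and all are labelled as given vehicle. The 5 control mice had no operation and ate chow with 10% of kilocalories from fat. The 5 HFD+mTAC mice underwent moderate transverse aortic constriction (mTAC), a narrowing of the aorta that puts the ventricle under pressure, at 11 weeks of age, and then ate a high-fat diet (HFD) with 60% of kilocalories from fat. Induction lasted 16 weeks, and the labels then give daily vehicle (5% DMSO and 45% PEG-300 in water, 10 mL/kg) for 6 to 9 weeks in HFD+mTAC mice, with no schedule for control mice. The study also took RNA from hearts soon after a single dose, and the labels alone tie these mice to the longer course. Diet and operation were applied together, so that their parts cannot be told apart here.

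Potassium channels let potassium ions leave the cell and so bring the heart's action potential back to rest. The selectivity filter, a short loop of each pore domain built around a pair of glycines, sorts potassium from sodium. In mouse ventricle a transient outward current (Kv4 subunits with the calcium-binding partner KChIP2) and several delayed rectifiers carry the early repolarization, inward rectifiers of the Kir2 type hold the resting potential, and two-pore channels give a background leak. Auxiliary subunits have no pore and set the number and gating of the channels they bind.

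The pore signature is shown for members on which the results below turn, because it is the stretch of sequence that these otherwise different families have in common. The principal coding sequence of each member (GENCODE release M21, GRCm38) was searched for codons of threonine or serine, then valine, isoleucine, leucine or threonine, then glycine, then tyrosine, phenylalanine or leucine, then glycine. In the lines below the 15 bases that match are in capitals, with 6 coding bases on each side. Each stretch lies in 1 coding exon and is given 5′ to 3′ on the coding strand.
Kcnj2 (chr11:111072201-111072227, plus strand): cagacaACCATTGGCTATGGTttcagg
Kcnj14 (chr7:45819627-45819653, minus strand): cagacgTCCATAGGCTATGGTgtgcgc
Kcnk3 (chr5:30622196-30622222, plus strand): ctcaccACCATCGGCTTCGGCgactat
Kcnh2 (chr5:24325549-24325575, minus strand): ctcaccAGCGTGGGCTTTGGCaatgtc
Kcna5 (chr6:126533739-126533765, minus strand): atgaccACTGTAGGCTACGGGgacatg

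All 39 members that belong to pore-forming families held the signature, and the 6 two-pore members each held 2 of them, as is known of channels with a pair of pore loops in 1 chain. The stretch shown for Kcnk3 is its second. None of the 10 auxiliary members (8 that bind voltage-gated channels and the BK channel subunits Kcnmb1 and Kcnmb4) held it. Among 21634 protein-coding genes searched in the same way, 345 (1.59%) held the signature.

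Total estimated counts per mouse ran from 34170139 to 53672260, of which 43.8 to 52.7% were mitochondrial. The control mice TT-583 and TT-584 stood apart from the other 8 on the second principal component (15.6% of the variance), with scores of 20.6 and 23.6 against -16.9 to 8.19. They also had the highest summed TPM of the fibroblast (146 to 156, against 73.8 to 120 in the other 8), smooth muscle (42.1 to 42.6 against 10.1 to 34.2), pericyte (84.6 to 86.3 against 42.6 to 72.9), macrophage (50.7 to 55.3 against 25.5 to 36.2) and endothelial markers (66.9 to 68.6 against 36.1 to 62.8). Their mitochondrial shares were the lowest, at 43.8 and 44.0% against at least 46.4%, and so was the median over members of the average transcript length relative to the gene's mean, at -0.132 and -0.168 on the log2 scale against at least -0.083. The part of these traits in the results was not tested. Fold changes of the named members were therefore also computed without these 2 mice, a choice made after the data were seen, and are given beside the member where they moved most and otherwise in the closing section. Cardiomyocyte markers were abundant in every mouse (5 of 5 detected, summed TPM 6799 to 9466 in control and 6230 to 9312 in HFD+mTAC mice, p = 0.151 in a two-sided exact permutation test), although Myh6, the main myosin heavy chain of the adult mouse ventricle, was listed at no more than 37.1 TPM.

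No potassium channel gene differed between HFD+mTAC and control mice at an adjusted p under 0.05 in edgeR's quasi-likelihood test, in which 0.0602% of all 13300 genes tested (8 genes, and 1 to 9 genes on leaving out each mouse in turn) were called. At an unadjusted p under 0.05 there were 6 members of 49 (12.2%), against 8.26% of all genes tested, so the members' share was near the background. Of these, the auxiliary subunit Kcnip1 was higher in HFD+mTAC mice, and the inward rectifiers Kcnj2 and Kcnj14, the two-pore channel Kcnk3 and the delayed rectifier Kcna1 were lower. No member had groups that did not overlap in CPM (counts scaled to library size after TMM normalization, used here to compare 1 gene between mice), against 1.96% of all genes tested. Log2 fold changes, given throughout as HFD+mTAC over control, were above 0 for 24 members and below 0 for 25, and their median of -0.001 stood beside 0.002 for all genes tested. DESeq2, run as an alternative, called 1 member, Kcnip1 (adjusted p = 0.0367), among 120 genes (0.902%). Without mice TT-583 and TT-584, edgeR called 0 members and 4 had an unadjusted p under 0.05. Since the tissue is bulk, fewer cells of a type and less RNA per cell cannot be told apart in any of these values.

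**Figure D1:**
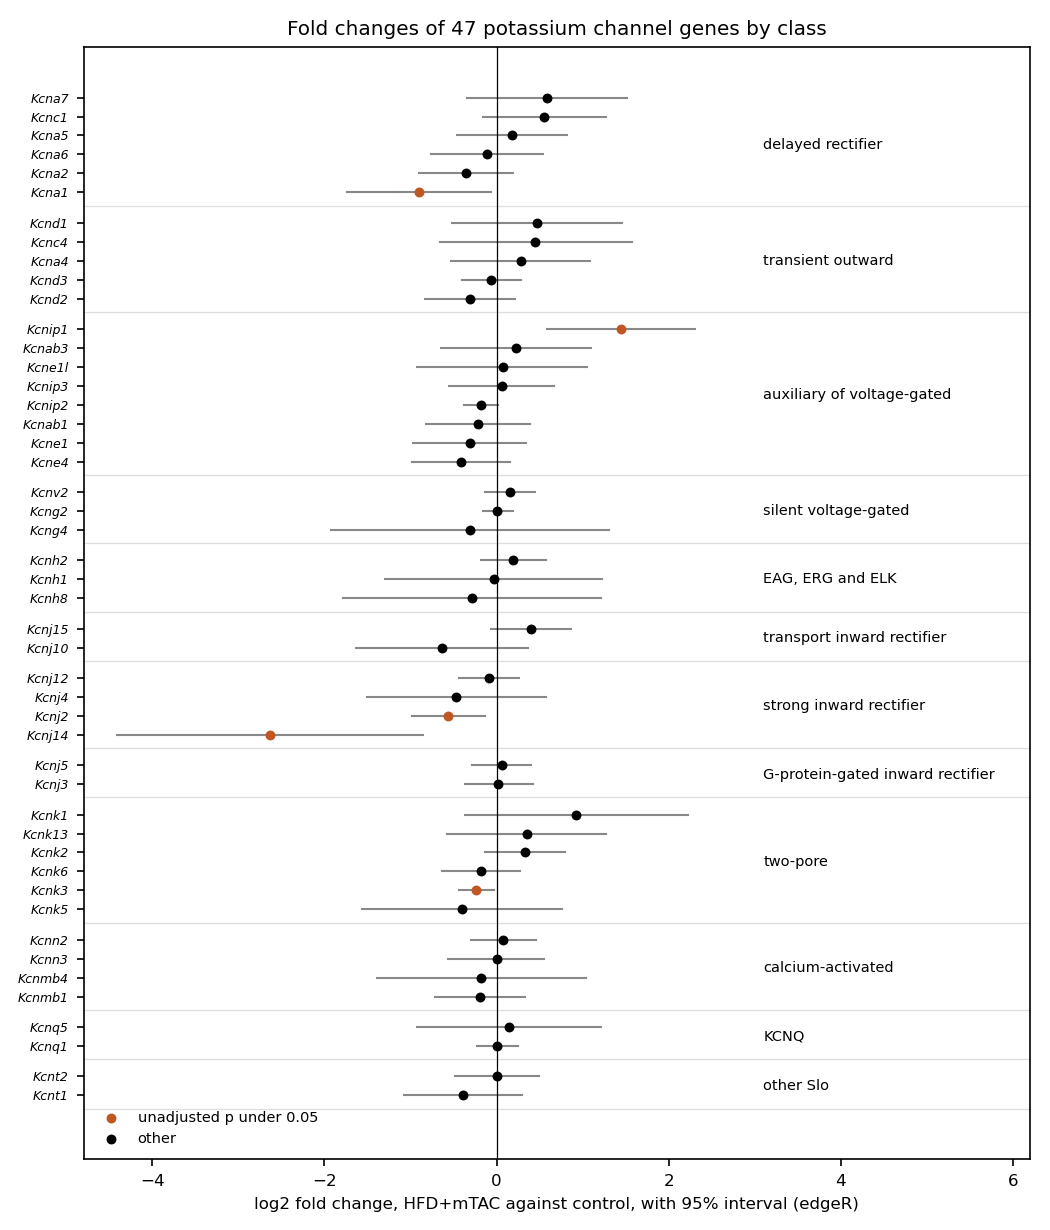
Log2 fold change (HFD+mTAC over control, horizontal axis) of 47 potassium channel genes from edgeR, grouped by class, with 95% intervals as lines. The 5 genes with an unadjusted p under 0.05 are in orange, and none has an adjusted p under 0.05. The lowest value is that of Kcnj14, which turned to 0.19 without 2 control mice.

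Levels were compared between genes in TPM, because only TPM is corrected for length. Kcnip2, which encodes KChIP2, was by far the most abundant member at 24.2 ± 6.79 TPM (SD over 10 mice), 45.3% of the summed mean TPM of all members (53.4). The leak channel Kcnk3 (TASK-1) followed at 6.23 ± 1.92 TPM, the silent subunit Kcng2, which modifies other Kv channels, at 4.43 ± 0.946 TPM and the ERG channel Kcnh2, which carries the rapid delayed rectifier, at 4.22 ± 1.54 TPM. The remaining members above 1 TPM were the delayed rectifier Kcna5 (2.26 ± 1.09 TPM), the acetylcholine-gated subunits Kcnj3 (2.21 ± 0.502 TPM) and Kcnj5 (1.37 ± 0.285 TPM), the slow delayed rectifier Kcnq1 (1.53 ± 0.421 TPM) and the small-conductance calcium-activated channel Kcnn2 (1.21 ± 0.180 TPM). A further 18 members lay between 0.1 and 1 TPM and 22 below 0.1 TPM. In this order only Kcnip2 and its next neighbour Kcnk3 had ranges over the 10 mice that did not overlap. Kcnn2 was nevertheless above Kcnj2, and Kcnj2 above Kcnj12, in each of the 10 mice, whereas Kcng2 was above Kcnh2, and Kcna5 above Kcnj3, in 5 of 10.

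**Figure D2:**
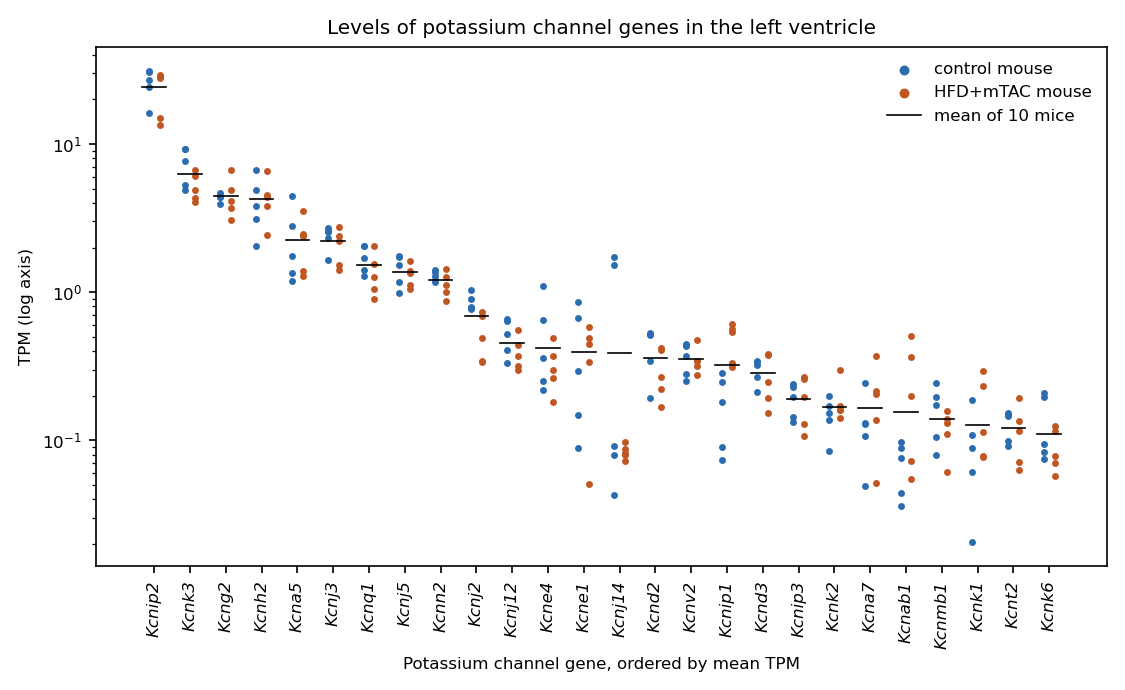
TPM (log axis) in each mouse of 26 potassium channel genes with a mean of at least 0.1 TPM, ordered by mean, with control mice in blue, HFD+mTAC mice in orange and the mean of 10 mice as a line. Kcnip2 stands above all others at 24.2 TPM on average, and Kcnj14 splits into 2 control mice above 1.5 TPM and 8 mice below 0.1 TPM.

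The transient outward current needs Kv4 pore subunits and KChIP partners, and none of these genes passed the test. Here and below the 5 values of a group follow the mouse numbers, TT-583 to TT-587 for control and TT-588 to TT-592 for HFD+mTAC mice. Kcnd2 (Kv4.2), the main Kv4 pore subunit of mouse ventricle, had 16.9, 16.5, 23.8, 16.3 and 9.68 CPM in control mice and 18.3, 15.0, 8.15, 10.7 and 15.0 CPM in HFD+mTAC mice. The lowest values were those of TT-587 and TT-590, 1 mouse of each group, and the log2 fold change was -0.31 ± 0.24 (SE, n = 5 per group, 95% interval -0.83 to 0.21, adjusted p = 0.796). Kcnd3 (Kv4.3), its close relative, had 21.9, 18.3, 22.6, 19.3 and 24.7 CPM in control mice and 24.2, 21.2, 15.0, 16.2 and 25.9 CPM in HFD+mTAC mice, with a log2 fold change of -0.06 ± 0.16 and an adjusted p of 0.955. Kcna4 (Kv1.4), which carries the slow form of the current, was near the lower end of detection, with 0.961, 0.683, 2.45, 2.47 and 1.02 CPM in control mice and 1.73, 2.06, 2.15, 1.30 and 1.97 CPM in HFD+mTAC mice and a log2 fold change of 0.28 ± 0.37 (adjusted p = 0.908). Its groups overlapped throughout, and without TT-583 and TT-584, whose values were the lowest, the log2 fold change was -0.12. The transient outward subunits Kcnd1 and Kcnc4 had mean levels of 0.0174 and 0.00475 TPM and log2 fold changes of 0.47 ± 0.46 and 0.45 ± 0.52.

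Kcnip2 had 225, 221, 239, 218 and 212 CPM in control mice and 189.9, 214, 166, 182 and 231 CPM in HFD+mTAC mice. HFD+mTAC mice lay below every control mouse in 3 cases and above in none, and the log2 fold change was -0.18 ± 0.09 (SE, n = 5 per group, 95% interval -0.38 to 0.02, adjusted p = 0.657). Its levels per length were 30.6, 26.9, 31.2, 24.1 and 16.1 TPM in control mice and 28.9, 28.1, 13.5, 14.9 and 27.8 TPM in HFD+mTAC mice. On that scale mice TT-587, TT-590 and TT-591 stood low at 13.5 to 16.1 TPM, against 24.1 to 31.2 TPM in the other 7. The same 3 mice had the longest average transcript length assigned to Kcnip2 (1650 to 1777 bases, against 986 to 1468 in the other 7), and TPM is the count divided by that length. With the lengths as an offset the log2 fold change was -0.07 (adjusted p = 0.951). Both groups hold mice of either kind, and the mice also differed on the first principal component (26.9% of the variance), where TT-587, TT-591 and TT-590 had the lowest scores of -27.5, -24.8 and -10.1. The deposited lengths are effective lengths, estimated in each mouse, and they can exceed the span of the gene. Kcna1, at chr6:126640397-126646384, was given 6507 to 10625 bases. Whether the longer assignment to Kcnip2 is a different KChIP2 transcript or a shift in effective length alone was not tested.

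**Figure D3:**
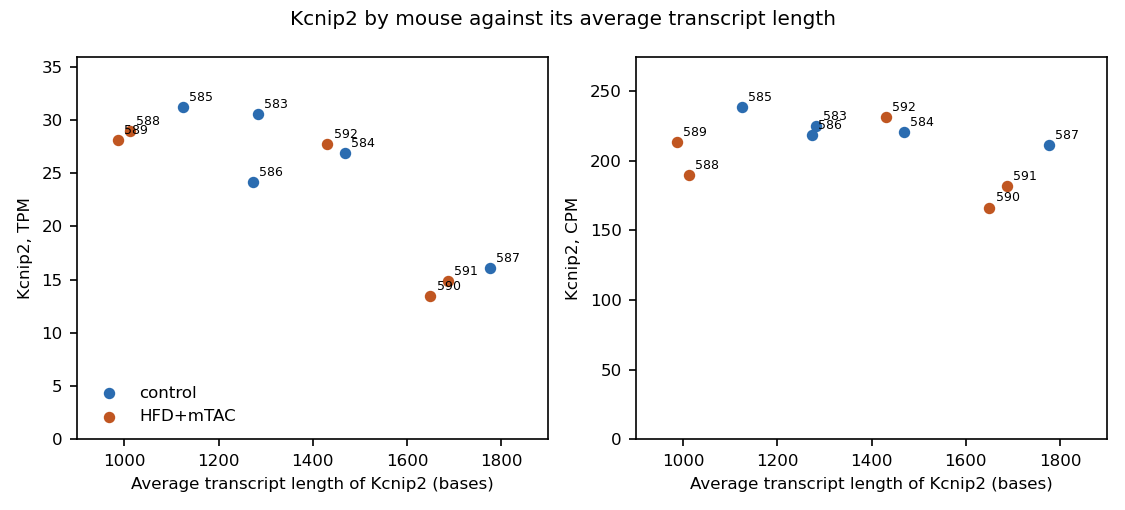
Kcnip2 in each mouse as TPM (left) and CPM (right) against its average effective transcript length in bases. Control mice are in blue and HFD+mTAC mice in orange, with the mouse number at each point. The 3 mice at 1650 bases or more have 13.5 to 16.1 TPM but 166 to 212 CPM, which overlaps the other 7 mice.

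Kcnip1 (KChIP1), a relative of KChIP2 known mainly from neurons, had the smallest p of all members. It had 0.624, 0.631, 2.01, 1.41 and 2.60 CPM in control mice and 2.44, 4.90, 5.38, 3.07 and 3.81 CPM in HFD+mTAC mice. The 2 lowest values were those of TT-583 and TT-584, and 4 of 5 HFD+mTAC mice lay above every control mouse, with TT-588 below TT-587. The means were 1.45 ± 0.863 CPM (SD) in control mice and 3.92 ± 1.23 CPM in HFD+mTAC mice, and the log2 fold change was 1.45 ± 0.40 (SE, n = 5 per group, 95% interval 0.59 to 2.31, adjusted p = 0.291), with an unadjusted p of 0.00316. These levels rest on 12 to 81 counts per mouse, and without TT-583 and TT-584 the log2 fold change was 0.97 (adjusted p = 0.757). The gene spans chr11:33629339-33993152 (GRCm38, minus strand), and Kcnmb1, the smooth muscle BK channel subunit, lies inside that span on the plus strand without shared exons, with a log2 fold change of -0.19 ± 0.24. Even in HFD+mTAC mice the mean level of Kcnip1 was 0.471 ± 0.138 TPM (SD, n = 5), against 22.6 ± 7.75 TPM for Kcnip2. Kcnip3, the third KChIP detected, had a log2 fold change of 0.06 ± 0.28 at 0.190 TPM.

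**Figure D4:**
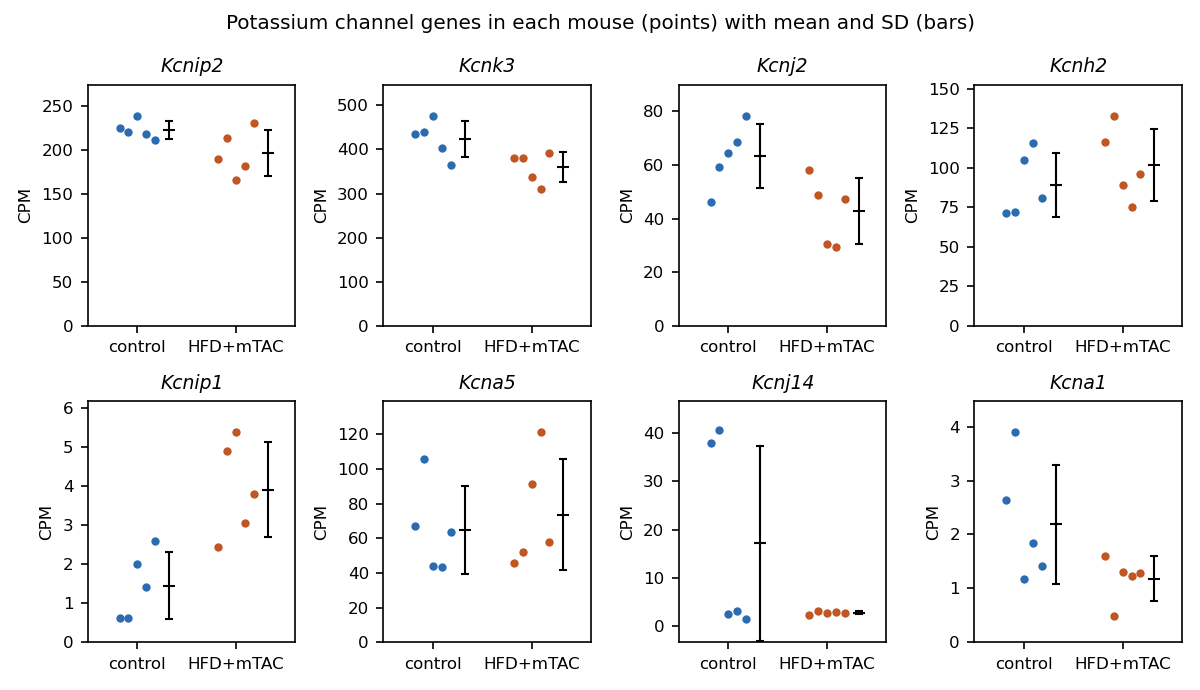
CPM in each mouse (points, control in blue and HFD+mTAC in orange) of 8 potassium channel genes, with the mean and SD of 5 mice as black bars and a vertical axis of its own for each gene. The groups overlap in every panel, 4 of 5 HFD+mTAC mice are above all control mice for Kcnip1, and Kcnj14 is high in 2 control mice.

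Delayed rectifier genes split in direction, 3 higher and 3 lower, and none passed the test. Kcna5 (Kv1.5), which carries the ultrarapid current, had 67.2, 106, 44.1, 43.6 and 63.8 CPM in control mice and 45.7, 52.0, 91.5, 121 and 58.1 CPM in HFD+mTAC mice. The highest mice, TT-584 and TT-591, belonged to different groups, and the log2 fold change of 0.18 ± 0.30 (SE, n = 5 per group, 95% interval -0.46 to 0.82, adjusted p = 0.923) was -0.07 without TT-591, 0.43 without TT-584 and 0.55 without TT-583 and TT-584. Kcna1 (Kv1.1), an axonal channel in nerve, had 2.64, 3.89, 1.18, 1.83 and 1.42 CPM in control mice and 1.6, 0.484, 1.31, 1.23 and 1.29 CPM in HFD+mTAC mice. Its 2 highest values were again those of TT-583 and TT-584, on 74 counts or fewer. The log2 fold change was -0.90 ± 0.39 (SE, n = 5 per group, 95% interval -1.74 to -0.06, adjusted p = 0.561), and it was -0.31 (adjusted p = 0.987) without these 2 mice. Schwann cell markers, of which 3 of 4 were detected widely enough to be tested and Sox10 was at 0 in at least 1 mouse, had summed TPM of 0.556 to 0.989 in control and 0.337 to 0.640 in HFD+mTAC mice (exact permutation test, two-sided, p = 0.0159), and their part in the Kcna1 values was not tested. Kcnc1 (Kv3.1) had 0.961, 0.999, 0.980, 0.493 and 1.34 CPM in control mice and 1.02, 1.63, 1.08, 1.09 and 2.15 CPM in HFD+mTAC mice and a log2 fold change of 0.55 ± 0.33 (adjusted p = 0.712). Kcna2, Kcna6 and Kcna7 had log2 fold changes of -0.35 ± 0.25, -0.11 ± 0.30 and 0.59 ± 0.43, with mean levels between 0.0483 and 0.164 TPM.

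The silent subunits do not form channels alone. Kcng2 varied little between mice, with 77.8, 78.3, 90.2, 94.5 and 97.5 CPM in control mice and 89.8, 85.1, 90.4, 84.6 and 92.7 CPM in HFD+mTAC mice and a log2 fold change of 0.01 ± 0.08 (SE, n = 5 per group, 95% interval -0.16 to 0.19, adjusted p = 0.983). All 5 HFD+mTAC mice lay inside the control range. Kcnv2 had a log2 fold change of 0.16 ± 0.13 at 0.352 TPM, and Kcng4 of -0.31 ± 0.75 at 0.00834 TPM.

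Genes of the rapid and slow delayed rectifiers, which set the length of the action potential in larger mammals, did not pass the test. Kcnh2 (ERG1) had 71.7, 71.9, 105, 116 and 80.7 CPM in control mice and 116, 133, 89.5, 75.0 and 95.9 CPM in HFD+mTAC mice, and its log2 fold change was 0.19 ± 0.17 (SE, n = 5 per group, 95% interval -0.18 to 0.57, adjusted p = 0.833). TT-589 was above every control mouse, and so was TT-588 by a small margin (116.3 against 116 CPM in TT-586). No HFD+mTAC mouse was below the control range. Without TT-583 and TT-584, which had the lowest values, the log2 fold change was 0.02. Its relatives Kcnh1 and Kcnh8 were at 0.00736 and 0.00799 TPM, with log2 fold changes of -0.03 ± 0.58 and -0.29 ± 0.69. Kcnq1 (Kv7.1) had 52.4, 52.2, 66.8, 58.2 and 49.5 CPM in control mice and 57.7, 63.2, 58.2, 43.5 and 58.3 CPM in HFD+mTAC mice, with a log2 fold change of 0.01 ± 0.11 (SE, n = 5 per group, 95% interval -0.23 to 0.25, adjusted p = 0.994). Exons of Kcnq1 overlap those of the antisense RNA Kcnq1ot1, and whether the counting used the strand of the library is not stated. Among members given mouse by mouse, Kcnd3, Kcng2, Kcnj3, Kcnj15, Kcnk2, Kcnk3 and Kcnn2 also share exon positions with genes of the opposite strand. Kcnq5, a relative of Kcnq1, was the least abundant member, at 0.00366 TPM, with a log2 fold change of 0.15 ± 0.49. Kcne1 (minK), the auxiliary subunit that slows Kcnq1, had 4.90, 5.20, 4.61, 2.96 and 2.12 CPM in control mice and 1.54, 3.21, 3.54, 4.17 and 3.62 CPM in HFD+mTAC mice. Its log2 fold change was -0.31 ± 0.30 (adjusted p = 0.851) on counts, -0.02 without TT-583 and TT-584 and 0.17 with transcript lengths as an offset, and its average length ranged from 980 to 4711 bases, with 3 mice (TT-585, TT-586 and TT-588) at 4582 bases or more. Kcne4, which inhibits Kcnq1, and Kcne1l had log2 fold changes of -0.41 ± 0.26 and 0.07 ± 0.46, and the beta subunits Kcnab1 and Kcnab3 of -0.21 ± 0.28 and 0.23 ± 0.40.

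The strong inward rectifiers form the Kir2 channels that hold the resting potential, and all 4 detected members had fold changes below 0, with a median of -0.51 on the log2 scale against 0.002 for all genes tested, of which 6606 (49.7%) lay below 0. Without TT-583 and TT-584 the count was 3 of 4 and the median -0.15, and without TT-591 they were 3 of 4 and -0.42. Kcnj2 (Kir2.1), the main one in ventricle, had 46.1, 59.4, 64.5, 68.6 and 78.2 CPM in control mice and 58.1, 48.7, 30.7, 29.6 and 47.1 CPM in HFD+mTAC mice. The 2 lowest mice, TT-590 and TT-591, lay well below every control mouse, and the other 3 HFD+mTAC mice lay inside the control range. The means were 63.4 ± 11.8 CPM (SD) in control mice and 42.8 ± 12.3 CPM in HFD+mTAC mice, a 1.48-fold lower value with a log2 fold change of -0.56 ± 0.19 (SE, n = 5 per group, 95% interval -0.98 to -0.14, adjusted p = 0.428) and an unadjusted p of 0.0123. Over the alternatives run, its log2 fold change lay between -0.71 and -0.45 and its adjusted p between 0.139 and 0.744. Kcnj12 (Kir2.2) had 17.0, 17.8, 20.0, 18 and 12.7 CPM in control mice and 21.2, 17.5, 14.9, 11.9 and 15.0 CPM in HFD+mTAC mice, with a log2 fold change of -0.09 ± 0.16 (SE, n = 5 per group, 95% interval -0.44 to 0.26, adjusted p = 0.927) that was 0.000699 without TT-591. Kcnj4 (Kir2.3), at 0.0343 TPM, had a log2 fold change of -0.47 ± 0.48 (adjusted p = 0.863).

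Kcnj14 (Kir2.4) had the largest fold change of all members, and it came from 2 control mice. It had 37.8, 40.5, 2.55, 3.17 and 1.57 CPM in control mice and 2.44, 3.21, 2.69, 2.87 and 2.70 CPM in HFD+mTAC mice. TT-583 and TT-584 held 788 and 770 estimated counts, whereas the other 8 mice held 20 to 53. The log2 fold change was -2.63 ± 0.82 (SE, n = 5 per group, 95% interval -4.41 to -0.85, adjusted p = 0.370), with an unadjusted p of 0.00731, and it was 0.19 (adjusted p = 0.987) without these 2 mice, so that the direction turned. Leaving out only one of them gave -2.11 and -2.03. The gene spans chr7:45816460-45824782 on the minus strand.

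The G-protein-gated subunits Kcnj3 (Kir3.1) and Kcnj5 (Kir3.4) form the acetylcholine-activated channel, best known from atrium and nodes. Kcnj3 had 103, 92.0, 136, 134 and 89.0 CPM in control mice and 141, 142, 92.8, 76.1 and 109 CPM in HFD+mTAC mice, with a log2 fold change of 0.02 ± 0.18 (SE, n = 5 per group, 95% interval -0.37 to 0.42, adjusted p = 0.989). The mice with the lowest values were TT-591, TT-587, TT-584 and TT-590, 2 of each group. Kcnj5 had 74.4, 64.2, 105, 63.7 and 73.8 CPM in control mice and 78.8, 106, 71.2, 65.5 and 75.6 CPM in HFD+mTAC mice, with a log2 fold change of 0.06 ± 0.16 (SE, n = 5 per group, 95% interval -0.28 to 0.40, adjusted p = 0.952). Atrial markers had lower summed TPM in HFD+mTAC mice, at 0.824 to 1.17 against 1.37 to 2.51 in control mice (exact permutation test, two-sided, p = 0.00794, the smallest this design can give). Of these 3 markers Myl7 and Sln were at 0 in at least 1 mouse and at no more than 0.830 TPM in any. Only Myl4, at 0.783 to 2.38 TPM, was tested in edgeR, with a log2 fold change of -0.42 (adjusted p = 0.706). The part of atrial markers in the Kcnj3 and Kcnj5 values was not tested. Of the transport rectifiers, Kcnj15 (Kir4.2) had 3.84, 2.63, 3.72, 2.75 and 2.91 CPM in control mice and 4.29, 3.39, 5.69, 4.44 and 3.25 CPM in HFD+mTAC mice, with a log2 fold change of 0.40 ± 0.21 (SE, n = 5 per group, 95% interval -0.06 to 0.86, adjusted p = 0.669), and Kcnj10 (Kir4.1), a glial channel, had -0.63 ± 0.46 at 0.0163 TPM.

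The ATP-sensitive channel of heart and vessels could not be compared, because both of its pore genes failed the TPM condition. Kcnj11 (Kir6.2), the pore of the cardiomyocyte channel, had 506 estimated counts in TT-588 and 0 in the other 9 mice. Kcnj8 (Kir6.1), the pore of the vascular channel, had 0, 0, 0, 43.4 and 0 estimated counts in control mice and 0, 32.1, 89.8, 181 and 59.1 estimated counts in HFD+mTAC mice. Markers of pericytes, cells in which Kcnj8 is known, had summed TPM of at least 42.6 in every mouse, those with Kcnj8 at 0 included. Rgs5 alone was at 36.0 to 67.7 TPM, whereas Cspg4 of the same list was at 0 in at least 1 mouse. The cause of the Kcnj8 zeros was not tested. The receptor subunit Abcc9 (SUR2), which pairs with both, was steady at 426 to 643 CPM in all 10 mice, with a log2 fold change of -0.01 (adjusted p = 0.989). Kcnn1, a small-conductance calcium-activated channel, showed the same kind of gap, with 261, 32.8, 0, 246 and 0 estimated counts in control mice and 7.34, 0, 277, 0 and 139 estimated counts in HFD+mTAC mice, and Kcnab2 was at 0 in 2 control mice. No fold change is given for these 4 Kcn genes.

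**Figure D5:**
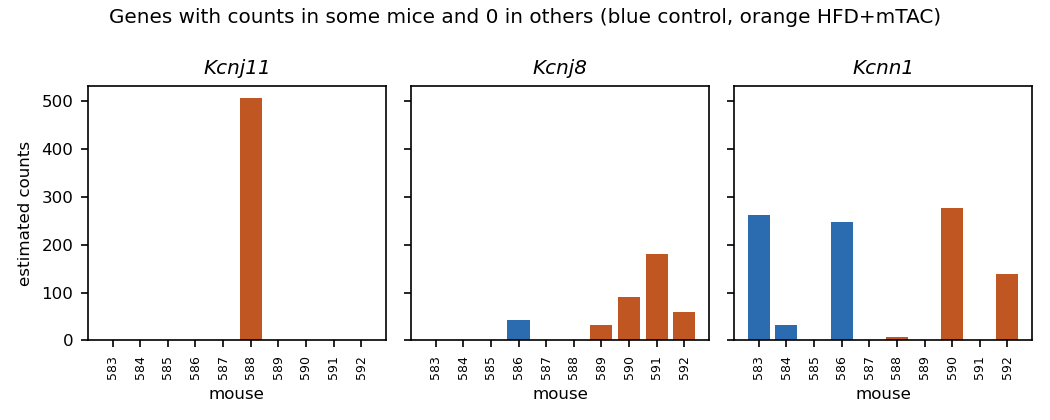
Estimated counts in each mouse of 3 potassium channel genes that failed the TPM condition (blue control, orange HFD+mTAC, vertical axis from 0). Kcnj11 is at 506 counts in 1 mouse and 0 in 9, and Kcnj8 and Kcnn1 each alternate between 0 and up to 277 counts within a group.

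The pore of the large-conductance channel, Kcnma1, was also left out, at 7.65 counts in TT-586, 4 in TT-590 and 0 in the other 8. A further 22 left-out genes had a highest TPM between 0.000466 (Kcnf1) and 0.0595 (Kcnu1). From high to low these were Kcnu1, Kcnj13, Kcne3, Kcnip4, Kcnn4, Kcnk12, Kcng1, Kcnc2, Kcnj16, Kcnrg, Kcne2, Kcnh3, Kcnmb2, Kcnh6, Kcna3, Kcns1, Kcnq3, Kcnb2, Kcnj9, Kcnj1, Kcnh7 and Kcnf1. The last 17 of the 45 left out were listed at 0 in all 10 mice, among them Kcna10, Kcng3, Kcnh4, Kcnh5, Kcnj6, Kcnk4, Kcnk7, Kcnk9, Kcnk10, Kcnk15, Kcnk16, Kcnk18, Kcnmb3, Kcns2, Kcns3 and Kcnv1.

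Two-pore channels carry background current, and Kcnk3 was the member of this class nearest to a difference. It had 435, 440.2, 476, 403 and 365 CPM in control mice and 381, 380.2, 336, 311 and 391 CPM in HFD+mTAC mice. The lowest mice were TT-591 and TT-590, both below every control mouse, and the other 3 HFD+mTAC mice lay inside the control range. The means were 424 ± 41.6 CPM (SD) in control mice and 359.9 ± 34.5 CPM in HFD+mTAC mice, with a log2 fold change of -0.24 ± 0.09 (SE, n = 5 per group, 95% interval -0.44 to -0.03, adjusted p = 0.515) and an unadjusted p of 0.0274. Over the alternatives run its log2 fold change lay between -0.35 and -0.19, and the smallest adjusted p, 0.0856, came with the first principal component as a covariate. An antisense gene, Gm9899, overlaps its exons. Kcnk2 (TREK-1), a stretch-sensitive channel, had 5.19, 4.42, 3.04, 5.78 and 5.19 CPM in control mice and 5.00, 7.20, 6.92, 6.15 and 4.30 CPM in HFD+mTAC mice, with a log2 fold change of 0.33 ± 0.21 (SE, n = 5 per group, 95% interval -0.13 to 0.79, adjusted p = 0.754). The remaining 4, Kcnk1, Kcnk5, Kcnk6 and Kcnk13, had log2 fold changes of 0.92 ± 0.60, -0.40 ± 0.53, -0.18 ± 0.21 and 0.35 ± 0.43 at mean levels of 0.126, 0.0364, 0.111 and 0.0337 TPM.

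Among calcium-activated channel genes, Kcnn2 (SK2) had 14.9, 12.5, 20.8, 23.1 and 18.6 CPM in control mice and 23.6, 20.8, 17.0, 15.0 and 18.1 CPM in HFD+mTAC mice. Its 2 lowest control values were those of TT-583 and TT-584, and the log2 fold change of 0.08 ± 0.18 (SE, n = 5 per group, 95% interval -0.30 to 0.46, adjusted p = 0.947) was -0.14 without them. Kcnmb1, the beta subunit of the smooth muscle BK channel, had 6.63, 7.99, 3.72, 5.08 and 8.02 CPM in control mice and 5.19, 3.63, 6.38, 6.76 and 5.65 CPM in HFD+mTAC mice, with a log2 fold change of -0.19 ± 0.24 (SE, n = 5 per group, 95% interval -0.71 to 0.33, adjusted p = 0.902) that was -0.01 without TT-583 and TT-584. Smooth muscle markers, all 5 of which were detected, had summed TPM of 15.0 to 42.6 in control and 10.1 to 34.2 in HFD+mTAC mice (exact permutation test, two-sided, p = 0.238), and their part in the Kcnmb1 values was not tested. The mice lowest in Kcnmb1, TT-589 and TT-585, were also the lowest in summed smooth muscle markers (10.1 and 15.0 TPM), but the orders differed elsewhere. TT-590 had a lower marker sum than TT-588 (17.0 against 19.95 TPM) and more Kcnmb1 (6.38 against 5.19 CPM). Kcnn3 and Kcnmb4 had log2 fold changes of -0.00 ± 0.26 and -0.18 ± 0.56, and the sodium-activated channels Kcnt1 and Kcnt2 of -0.39 ± 0.32 and 0.00 ± 0.22.

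Genes outside the Kcn name that bind, anchor or control potassium channels were read from a list of 25, of which 21 could be tested and 0 were called, with 9 above and 12 below 0. The only one at an unadjusted p under 0.05 was Dpp6, a partner of Kv4 channels, which had 0.0480, 0.0526, 0.490, 0.141 and 0.315 CPM in control mice and 1.02, 0.484, 0.923, 0.751 and 0.430 CPM in HFD+mTAC mice. Control mouse TT-585 lay above TT-589 and TT-592 and the other 4 control mice lay below every HFD+mTAC mouse, and the log2 fold change of 1.76 ± 0.57 had an adjusted p of 0.402. Dpp6 was near the lower end of detection, at a mean of 0.0054 TPM, and its lowest values were those of TT-583 and TT-584. The next smallest p above 0 was that of Klf15, a transcription factor known to control KChIP2, with 12.4, 20.3, 18.1, 13.9 and 9.76 CPM in control mice and 15.8, 25.8, 13.8, 17.9 and 28.4 CPM in HFD+mTAC mice and a log2 fold change of 0.45 ± 0.23 (adjusted p = 0.665). Below 0 the smallest p belonged to Cav3, the caveolin of muscle, and Tmem38a, an intracellular potassium channel of the sarcoplasmic reticulum, both with -0.17 ± 0.09 (adjusted p = 0.641 and 0.665). Irx3 and Irx5, which are known to shape the gradient of Kv4 subunits across the wall, had log2 fold changes of -0.03 ± 0.17 and -0.14 ± 0.24.

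Sodium and calcium channel genes, which carry the opposing depolarizing currents, gave a similar count, with 21 of 27 tested, 0 called, 11 above and 10 below 0. Scn4b, a beta subunit of the cardiac sodium channel, had 76.1, 62.8, 67.8, 53.6 and 28.9 CPM in control mice and 126, 96.6, 76.8, 69.9 and 89.9 CPM in HFD+mTAC mice. Its log2 fold change was 0.66 ± 0.23 (adjusted p = 0.423), with the lowest value in control mouse TT-587 and the highest in TT-588. Scn3b had a log2 fold change of 0.62 ± 0.29 (adjusted p = 0.607), and the smallest p below 0 were those of Scn8a, at -1.15 ± 0.60 and no more than 0.472 CPM, and Trpm4, at -0.74 ± 0.62. The L-type calcium channel Cacna1c had a log2 fold change of 0.12 ± 0.16.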

How the data were processed

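Polyadenylated RNA of 5 control and 5 HFD+mTAC left ventricles was analyzed, with groups taken from the sample labels. The paper's gene set comparison of HFD+mTAC with control hearts lists fewer control mice than the 5 deposited, and which control mice it used is not stated. Libraries came from a stranded mRNA kit. The labels give single-end reads of 100 bases, whereas the methods give paired-end reads of 50 bases. The submitters' processing notes name Salmon 1.6.0 and the build hg38, while the methods name GENCODE transcripts of mouse GRCm38, and whether strand was used is not given in the sources used here. The authors deposited estimated counts per gene, made by salmon and summed through tximport without normalization. They also deposited TPM, scaled per column, and average transcript lengths in bases (effective lengths, as tximport gives them).

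The rounded counts entered edgeR 4.0.16 under R 4.3.3 (TMM, quasi-likelihood test, no covariate), over 13300 protein-coding, not mitochondrially encoded genes with a count of at least 1 in 9 of 10 mice, and p-values were adjusted over all of them by Benjamini-Hochberg (threshold 0.05). The test was checked on simulated data. Single values were compared by two-sided exact permutation tests over 252 arrangements, where the smallest possible p is 0.00794. Libraries of a group differed by a chi-square per degree of freedom of at least 12.5, far above sampling noise. The labels give separate mice but no pairing or batch.

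The members, classes and lists were chosen with earlier results of these data known. Members named with every mouse's value were 16 of a list of 20 subunits known from ventricle or vessels (the other 4 were not members), any member with an adjusted p under 0.05 or groups that did not overlap in CPM, the 5 smallest p above and below 0, and the 5 highest mean TPM, 22 in all. Counts over members and lists include some genes whose own values are not reported here. Partner and depolarizing channel genes named were the 2 smallest p in each direction, and others were named after their values were seen. Cell type markers were summed in TPM per mouse, and the permutation p-values of these sums were not adjusted for the number of marker lists compared. Besides the lists given with results, summed TPM of markers of conduction cells (1.50 to 3.39 in control and 1.44 to 3.64 in HFD+mTAC mice), endothelium (41.1 to 68.6 and 36.1 to 62.8), lymphocytes (0.140 to 0.526 and 0.119 to 0.367), adipocytes (0.0328 to 0.511 and 0.00405 to 0.322) and erythroid cells (75.0 to 752 and 81.3 to 737) overlapped between the groups. Gene positions, biotypes and pore stretches come from GENCODE M21 (GRCm38), an older release than that of the methods. Alternatives were DESeq2 1.42.0, limma 3.58.1 on log2(TPM + 1) and log2(TPM + 0.1), other normalizations and filters, all biotypes, transcript lengths as an offset, robust dispersion, the first principal component as a covariate and omission of each mouse. Omission of TT-583 and TT-584 together was added after the data were seen. Depth limits low members, since some rest on fewer than 20 counts in a mouse.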

Additional observations from a re-analysis of the deposited data

Results flagged for a closer look

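Of the 44 sets of 5 mice (22 named members in 2 groups) 2 held a mouse far from the other 4, by Dixon's 95% criterion on the gap to the nearest mouse over the range, where chance gives about 1 in 20. Kcnq1 was at 43.5 CPM in HFD+mTAC mouse TT-591, against 57.7 to 63.2 CPM in the other 4 HFD+mTAC mice. Kcnj5 was at 104.6 CPM in control mouse TT-585, against 63.7 to 74.4 CPM in the other 4 control mice, and HFD+mTAC mouse TT-589 had a value as high.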

How the results depend on the processing

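edgeR called 0 members under every alternative, and DESeq2 called 1 (Kcnip1, higher), while 4 to 9 members had an unadjusted p under 0.05 and the median log2 fold change of the members lay between -0.077 and 0.024. Over all 13300 genes, the number called was 8 by edgeR, 120 by DESeq2, 1 by limma at either pseudocount, 1 with lengths as an offset, 50 with the first principal component as a covariate and 4 without TT-583 and TT-584. Leaving out 1 mouse gave 1 called gene for TT-584, TT-586, TT-587, TT-588, TT-590 or TT-592, 2 for TT-585, 3 for TT-589, 6 for TT-583 and 9 for TT-591, and the cause was not tested. No paired analysis was possible because the groups share no replicate numbers. Of named members, Kcnip1 was called by DESeq2 only, with adjusted p from 0.0367 to 0.757 over the alternatives. These log2 fold changes turned sign. With limma at a pseudocount of 1, 0.1 or with lengths as an offset they were -0.18, -0.20 and -0.22 for Kcnq1, 0.14, 0.16 and 0.17 for Kcne1, -0.06, -0.07 and -0.09 for Kcnj3 and -0.04, -0.04 and -0.10 for Kcnn2, and -0.01 for Kcnj5 with lengths only. With the first principal component they were -0.03 for Kcnq1 and -0.08 for Kcnj3. Without TT-583 and TT-584 they were -0.12 for Kcna4, -0.05 for Kcnq1, -0.09 for Kcnj3, -0.03 for Kcnj5, -0.14 for Kcnn2, 0.19 for Kcnj14 and -0.09 for Kcng2. Without these 2 mice others kept their sign, at -0.31 for Kcnd2, -0.11 for Kcnd3, -0.18 for Kcnip2, -0.71 for Kcnj2, -0.07 for Kcnj12, 0.35 for Kcnk2, -0.20 for Kcnk3, 0.42 for Kcnj15 and 0.58 for Kcnc1. On leaving out each mouse in turn, the ranges that crossed 0 were -0.04 to 0.09 for Kcnq1, -0.08 to 0.13 for Kcnj3, -0.03 to 0.06 for Kcng2, -0.03 to 0.18 for Kcnn2, -0.07 to 0.20 for Kcnj5, -0.15 to 0.04 for Kcnd3, -0.07 to 0.43 for Kcna5 and -0.21 to 0.000699 for Kcnj12, and the cause was not tested. The other named members kept their sign under each alternative run, and with 5 mice a group a difference of a low member may not be detectable at this depth.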

Other observations

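The average effective transcript length that tximport assigned to a member differed between mice. The highest over the lowest length was at least 1.5 for 23 of 49 members (46.9%), against 43.0% of all genes tested, and at least 2 for 12 members (24.5%), against 27.0%. The median ratio was 1.39 for members and 1.42 for all genes tested. The sodium-activated channel Kcnt1 had lengths of 611 to 8171 bases, the beta subunit Kcnab1 of 1051 to 11386 bases and Kcnab3 of 705 to 5043 bases, so that their TPM and CPM order the mice differently. Kcnab1, for example, was at 0.508 TPM and 3.46 CPM in TT-588 but at 0.0761 TPM and 6.22 CPM in TT-587.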
